A study of Mus musculus with 9 samples.

Results

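Uninjured dorsal root ganglia (DRG) of the L3 and L4 levels were measured against a universal mouse reference RNA on 4 two-colour Agilent arrays, those whose treatment label reads control, out of 9 arrays in the series. On each array the DRG sample was labelled with cyanine 5 (Cy5) and the reference, a commercial pool of RNA from cultured mouse cell lines, with cyanine 3 (Cy3). The value of a probe was the log2 ratio of Cy5 over Cy3, on which 1 is a 2-fold higher signal in DRG and -1 a 2-fold lower one. The mice were adults labelled cre.neg and jun.wt, which holds for all samples of the series, and the 5 arrays of DRG taken 3 days after the sciatic nerve was cut were not used. The source label of the uninjured samples names the transection too, so that their group rests on the treatment label, and the methods give uninjured DRG as the controls. The labels give no strain or sex and identify no animals, so that p-values measure only the spread between these 4 samples, which may be technical.

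The probes read on these 4 arrays were those that are not controls and whose Cy5 signal was well above the local background on all 4 arrays, which held for 28898 of 41174 probes (70.2%). Their mean log2 ratio was tested against 0 over the 4 arrays by the moderated statistic of limma, with p-values adjusted by Benjamini and Hochberg's method over all 28898 probes, and a probe was called higher or lower in DRG at an adjusted p under 0.05 and a mean of at least 1 in size. Where genes are counted, each is represented by its brightest probe that passed, which gave 19357 genes, 15570 of them with a current symbol. An exact sign-flip test of a single gene over 4 arrays cannot go below p = 0.125, two-sided, so that calls rest on the fit across all probes. Within-array loess normalization sets each array's centre near 0, and a ratio of 0 is therefore that centre and not an equal amount of RNA. The reference is 1 pool in 1 dye orientation, so that its own spread is not in the test and a dye effect cannot be told apart from a difference between DRG and reference. The processed values match a background correction that adds a constant to both channels, which draws the ratios of dim probes towards 0. In bulk tissue, fewer cells of a type and less RNA per cell cannot be told apart.

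A DRG holds the cell bodies of primary sensory neurons, which carry touch, temperature, pain and body position from the periphery to the spinal cord. Each cell body is wrapped by satellite glial cells, its axon by myelinating or non-myelinating Schwann cells, and the ganglion is filled by blood vessels, resident macrophages and a connective sheath. Sensory neurons have left the cell cycle, carry long neurofilament-rich axons, release glutamate and peptides, and detect stimuli with ion channels. The reference, in contrast, comes from dividing cells. The 4 arrays agreed closely for most genes: log2 ratios of array pairs correlated across probes at r between 0.980 and 0.988, the median SD of a gene over the 4 arrays was 0.11, and its 95th percentile was 0.30. Median Cy5 signal lay between 199.7 and 231.4 and median Cy3 signal between 105.4 and 118.7, no probe was saturated, and the number of arrays limits the precision.

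DRG and reference differed for a large share of the genes. Among probes, 5709 were called higher (19.8% of those tested) and 4518 lower (15.6%). Among genes, 4078 were called higher (21.1%) and 3259 lower (16.8%). Of the called genes with a symbol, 6338 of 6345 had the same sign on all 4 arrays. With each array centred on its median and no loess, 7232 probes were called higher and 3373 lower, which moved the share of higher calls among all calls from 55.8% to 68.2%. The higher side reached farther: 1046 genes had a mean log2 ratio of 3 or more and 364 of -3 or less, and 242 genes reached 5 against 24 that reached -5. The filter asks for signal in DRG and so shortens the lower side, and 1064 probes (656 genes with no probe tested) were above background in the reference on all 4 arrays and in DRG on none. The median over all genes tested was 0.09, and the lists of genes below are read against it and against the shares of 21.1% and 16.8%.

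**Figure D1:**
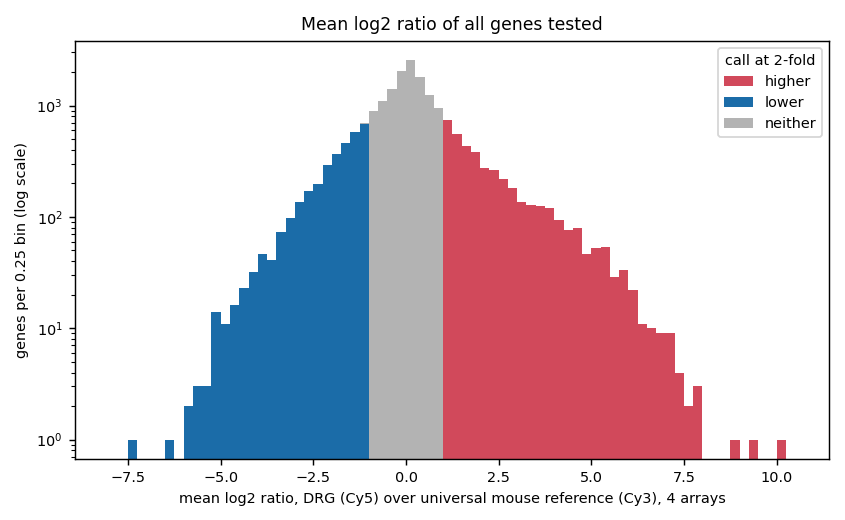
Histogram of the mean log2 ratio of DRG (Cy5) over universal mouse reference (Cy3) for the 19357 genes tested, in bins of 0.25 with a logarithmic vertical axis, coloured by call (stacked). The distribution centres near 0.09 and its higher side reaches 10.01, while the lowest value is -7.44.

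The gene with the highest ratio was Nefl, the light subunit of the neurofilaments that fill sensory axons. Its log2 ratios on replicates 1 to 4 were 10.03, 9.95, 9.92 and 10.17, and its mean was 10.01 ± 0.06 (SE, n = 4 arrays; limma adjusted p = 1.61e-10). The 4 values lay close together, far above 0. Calca, which encodes calcitonin and calcitonin gene-related peptide (CGRP), came next at 9.39, 9.20, 9.19 and 9.23, with a mean of 9.25 ± 0.05 (SE; limma adjusted p = 1.61e-10). S100b, a calcium-binding protein of glia and of some sensory neurons, followed at 8.83, 8.74, 8.90 and 8.88. None of these 3 genes came near the lower end of the called range on any array.

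Of the other genes among the 15 highest, the 11 reported here had means between 7.19 and 7.85. They were Frmd3, the granule protein chromogranin B (Chgb), Zcchc18, the vesicle fusion protein Snap25, Fgf12, an intracellular partner of sodium channels, the potassium channel Kcna1, Sparcl1, a secreted matrix protein of glia and vessels, Mal2, the glycosyltransferase Galnt14, the vesicle protein synaptoporin (Synpr) and the anchoring protein Akap6. Synpr stood at 7.50 on replicate 1 and between 7.10 and 7.14 on the other arrays. Kcna1 ranged from 7.12 on replicate 2 to 7.60 on replicate 1. The arrays of the other 9 genes lay close together as well.

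Different probes of these genes did not always give like values. On mouse build mm7, the Calca probe that stands for the gene lies at chr7:110547755-110547814 and was designed to NM_001033954, whereas a second at chr7:110549383-110549442, designed to NM_007587, gave 1.61, 1.14, 1.26 and 1.35, with a mean of 1.34. Calca transcripts are spliced to different last exons in thyroid cells, where calcitonin is made, and in sensory neurons, where CGRP is made. Both probes were called higher, and the signal of one probe cannot be set against that of another, only its ratio. The Nefl probes gave means of 10.01 and 5.63, and the Galnt14 probes 7.25 and 1.53. Among 6681 genes with more than 1 probe tested, the probes of 2308 differed by over 1 on the log2 scale. For 77 genes, 1 probe had a mean of at least 1 and another a mean of at most -1.

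At the lower end stood genes of dividing cells beside genes with other roles. Ifi202b, an interferon-inducible gene, had log2 ratios of -7.41, -7.44, -7.51 and -7.40, with a mean of -7.44 ± 0.05 (SE; limma adjusted p = 1.87e-10). Rpl39l, a ribosomal protein paralogue, had a mean of -5.90. Mki67, the proliferation marker Ki-67, stood at -5.63, -5.74, -5.77 and -5.60, with a mean of -5.69. The arrays lay close together for each of these 3 genes, and none came near 0.

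A further 11 of the 15 lowest genes had means between -5.56 and -5.17. Ncapg, Sgo1, Bub1 and Ccnb1 act in mitosis, Cdt1 licenses DNA replication, Il1rl1 is the receptor for interleukin 33, Ptgs1 is a cyclooxygenase, Mmp3 a matrix protease, Msln the mesothelial surface protein mesothelin, Mycl a transcription factor of the Myc family and Xlr a lymphocyte-regulated gene on the X chromosome. Of these, Ptgs1 varied most among the arrays, from -5.60 on replicate 2 to -4.92 on replicate 3.

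**Figure D2:**
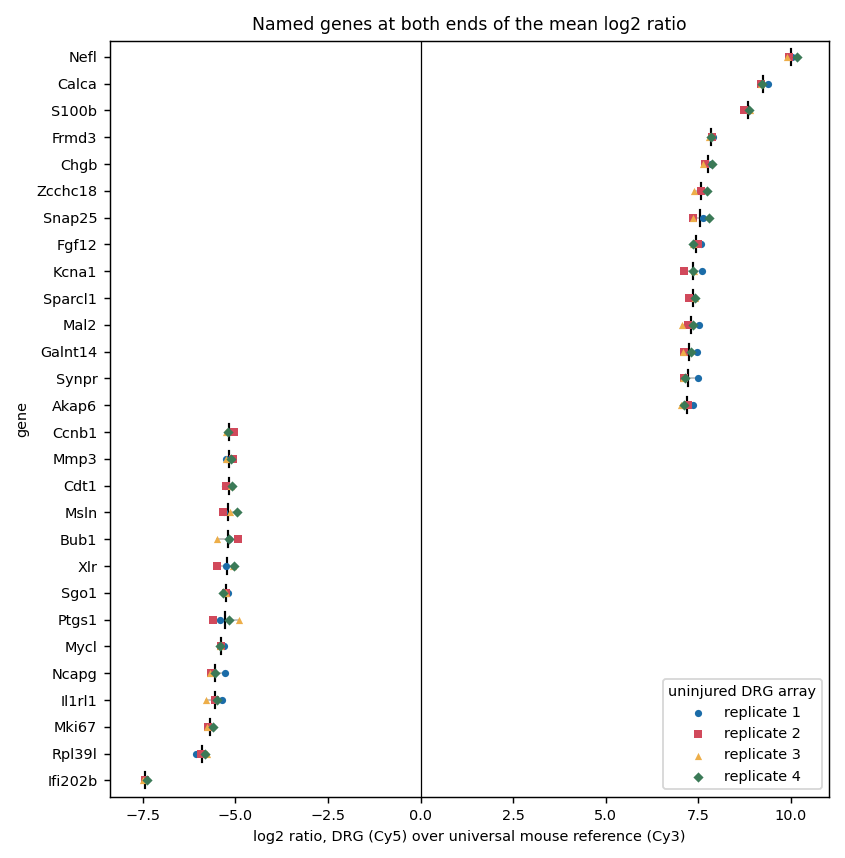
Log2 ratio of DRG (Cy5) over universal mouse reference (Cy3) on the horizontal axis for the 28 genes named in the text among the 15 highest and the 15 lowest means, with 1 marker per uninjured array and a black bar at the mean of 4. The arrays nearly overlie each other, from Nefl at 10.01 to Ifi202b at -7.44, and no gene of either end has a value of the other sign.

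The list of sensory transduction channels holds channels that detect stimuli and the voltage-gated sodium channels Scn9a, Scn10a and Scn11a. Of its 18 genes 15 were tested, 11 were higher in DRG (73.3%, beside 21.1% of all genes), and none was lower. Scn11a, the sodium channel Nav1.9 of pain neurons, stood at 6.40, 6.12, 5.93 and 6.21, and Scn10a, its neighbour Nav1.8, at 4.61, 4.42, 4.36 and 4.83. The touch channel Piezo2 had a mean of 5.67 and the acid sensors Asic2 and Asic3 of 4.98 and 4.20. The irritant receptor Trpa1 stood lower, between 1.96 and 2.51, and the ATP receptor P2rx3 between 2.66 and 2.72. All 4 arrays were above 0 for each of these genes.

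For some receptors the reference gave no usable signal. Scn9a, the sodium channel Nav1.7, was well above background in DRG and in the reference on no array, and its signal in DRG was at least 4.43-fold higher than the lowest reference signal that is well above background. The cold receptor Trpm8 was likewise dim in the reference, and its log2 ratios, between 0.76 and 0.93, stayed under the fold limit. On Agilent's own ratio, which adds no constant, Trpm8 reached 4.36 and passed it. That ratio rests on the same dim reference signal, so that its size is not a measure of the fold. No probe matched Trpv1, Piezo1 or Mrgprd here. In total 255 of the 4078 genes called higher (6.25%) had a reference signal that was not well above background on any array. Where a gene of this kind is named, the fold is a lower bound from channel signals normalized between arrays, constant included, and not its fitted ratio.

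Voltage-gated channels followed the same direction. Of 12 sodium channel subunits tested, 11 were higher, with a median of 3.64, led by Scn8a (6.79) and with the auxiliary subunit Scn3b at 5.10. Of 29 potassium and hyperpolarization-activated channels, 23 were higher and none lower, with a median of 2.63. After Kcna1 came Kcnt1, a sodium-activated channel, at 5.47. The silent subunit Kcns3 was at least 43.6-fold higher against a dim reference. Kcnn4, a calcium-activated channel of blood and epithelial cells, had a mean of -0.94 and was not called, but it was called lower on Agilent's own ratio (-1.19) and with the arrays centred on the probes tested (-1.02). Calcium channel subunits were less one-sided, with 6 of 14 higher, 1 lower and a median of 0.78. Cacnb4 had a mean of 4.08, and the gabapentin-binding subunit Cacna2d1 and its relative Cacna2d3 had means of 3.31 and 3.93. Cacna1g, a low-threshold channel, was lower at -2.58, -2.34, -1.73 and -2.01.

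Among receptors for the transmitters that act on sensory neurons, 17 of 21 tested glutamate and GABA receptor genes were higher, none was lower, and the median was 2.99. The kainate receptor subunits Grik1 and Grik4 stood at 6.23 and 5.74. Gabrg1, a subunit of the GABA-A receptor, was at least 42.9-fold higher against a reference that was dim on all arrays. Receptors for peptides, opioids, serotonin and itch ligands were higher for 16 of 28 tested and lower for none, with a median of 1.18. Among the highest were the lysophosphatidic acid receptor Lpar3 (3.83), the nociceptin receptor Oprl1 (3.80), the cholecystokinin receptor Cckar (3.48) and the serotonin-gated channel Htr3a (3.21). Npy2r, a receptor for neuropeptide Y on sensory terminals, was at least 8.0-fold higher. The lowest was Osmr, the oncostatin M receptor, at -0.89, which was not called but reached -1.03 and a lower call on Agilent's own ratio. The median of this list was 2.92 on that ratio and 2.38 with an offset of 0, and no cause was tested.

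Neuropeptide genes were higher for 12 of the 14 tested, out of 19 in the list, with a median of 3.61 and none lower. Tac1, the precursor of substance P, stood at 6.09, 5.84, 5.83 and 6.0. Nmb, an itch peptide, had a mean of 5.74, Calcb, the second CGRP gene, of 5.47, and Adcyap1, the PACAP precursor, of 4.47. Gal and Sst, which mark smaller groups of neurons, stood at 3.17 and 2.50. Npy was uneven among the arrays, at 1.62, 0.56, 0.77 and 0.28, and with a mean of 0.80 it was not called, although on Agilent's own ratio it reached 2.40 and was. Vip, Grp, Ucn and Nmu had a probe that did not pass the filter, and no probe matched Crh.

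The growth factor receptors that divide sensory neurons into classes were higher for 10 of 13. Ntrk2 and Ntrk3, which bind brain-derived neurotrophic factor and neurotrophin 3, had means of 6.31 and 3.38. Gfra3, the artemin coreceptor, ranged from 6.11 on replicate 4 to 6.64 on replicate 1, and Ngfr, the shared low-affinity receptor, had a mean of 6.15. Met, the hepatocyte growth factor receptor, was the exception at -3.84, -4.25, -3.99 and -3.89. Ret, the signalling receptor for the GDNF family, stood between 0.71 and 0.76 and was not called, while on Agilent's own ratio it reached 2.94 and was called higher.

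Transcription factors of sensory neurons were higher for 14 of 21 tested and lower for none, with a median of 1.70. Isl2 and Isl1, LIM homeodomain factors of sensory and motor neurons, had means of 5.78 and 5.50. Myt1l, a factor of neurons in general, stood at 4.70, Hmx1 at 3.12, and Pou4f1, also called Brn3a, at 2.81, 2.73, 2.91 and 2.98. The 4 arrays did not come near 0 for any of these. These factors of sensory neurons were thus present in DRG, and few markers of other parts of the nervous system were called in either direction. Of 20 genes of central, motor and autonomic neurons, 11 were tested, 1 was higher and 1 lower. The higher one was Th (3.40), tyrosine hydroxylase, which low-threshold C fibres of the DRG also express.

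The neuronal lists with the most members were those of structure and release. All 37 genes of the list of neuronal cytoskeleton and axon proteins passed the filter, 34 were higher, none was lower, and the median was 4.23. Besides Nefl, the neurofilament subunits Nefm and Nefh stood at 7.08 and 6.59, the RNA-binding protein Elavl4 (HuD) at 7.07, the axonal motor Kif5c at 6.59 and the ubiquitin hydrolase Uchl1 at 6.55. Basp1, a growth-associated membrane protein, stood lower at 0.61, 0.72, 0.63 and 0.42. All 46 synaptic vesicle and release genes also passed, of which 42 were higher and none lower, with a median of 3.56. Slc17a6, the vesicular glutamate transporter of sensory neurons, stood at 6.24, 6.39, 6.17 and 6.06. Scg2, a granule protein, stood at 5.29, 4.99, 4.94 and 5.11.

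Sequences before the start of genes from these 2 groups are shown because peptide and granule genes are textbook carriers of the cAMP response element. The sequences come from RefSeq promoters on build GRCm38.p6, of which 32851 cover 27025 genes, and 765 of the 1039 genes of all lists had an entry. The 250 bases before each start were searched on both strands for TGACGTCA, which reads the same on either strand. It was found in 3 of 15 neuropeptide genes (20%), in 4 of 36 synaptic vesicle and release genes (11.1%), in 3.7% of genes called higher, in 2.32% of genes called lower, in 2.77% of genes tested and in 1.77% of all genes. The 150 bases before the start of Chgb, Scg2 and Sst are given 5′ to 3′ on the strand of the gene, with TGACGTCA in capitals.
Chgb, chr2:132781492-132781641 (+ strand): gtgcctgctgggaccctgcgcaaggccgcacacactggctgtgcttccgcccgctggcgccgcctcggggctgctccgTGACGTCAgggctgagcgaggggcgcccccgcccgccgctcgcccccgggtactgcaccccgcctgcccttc
Scg2, chr1:79440027-79440176 (- strand): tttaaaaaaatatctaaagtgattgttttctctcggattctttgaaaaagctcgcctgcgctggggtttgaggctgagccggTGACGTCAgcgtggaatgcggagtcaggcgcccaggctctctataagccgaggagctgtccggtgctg
Sst, chr16:23890845-23890994 (- strand): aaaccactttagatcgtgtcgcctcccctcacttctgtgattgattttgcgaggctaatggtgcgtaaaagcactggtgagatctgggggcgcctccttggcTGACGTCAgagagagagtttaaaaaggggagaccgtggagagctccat
These matches are letters in a window and no measurement of binding. A variant, TGACGTAA, which begins with the same letters, was found in 0.525% of all genes and in 1 synaptic gene. The neuronal restrictive silencer element was in 10 genes of the whole table (0.037%) and in 6 of 12338 genes tested (0.0486%). It was in 4 of 2731 genes called higher (0.146%) and in none of 2199 called lower, which are too few genes to read a direction from.

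Glial genes were higher in DRG too. All 25 genes of myelinating Schwann cells passed the filter, 22 were higher, none was lower, and the median was 2.98. Dhh, a ligand from Schwann cells to the nerve sheath, had a mean of 6.06, the myelin protein Ncmap of 5.19 and the transcription factor Pou3f1 of 4.87. The mean over the list was 3.67 on replicate 1, 2.98 on replicate 2, 3.36 on replicate 3 and 3.39 on replicate 4, and replicate 2 was lowest. Pmp22, a compact myelin protein, followed that order at 5.36, 3.98, 4.85 and 4.88. Egr2, the master regulator of peripheral myelin, did as well at 1.93, 0.02, 1.03 and 1.06, and its mean of 1.01 fell under the fold limit without replicate 1 (0.71) or without replicate 4 (0.99).

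Among genes of satellite glia and non-myelinating Schwann cells, 19 of 26 tested were higher and 1 was lower, with a median of 2.81. The fatty acid binding protein Fabp7 stood at 6.88, 6.26, 6.45 and 6.89, the lipoprotein genes Apoe and Apod at means of 5.93 and 5.90, and Kcnj10, the inward rectifier that buffers potassium in satellite glia, at 5.46. Gja1, the gap junction protein connexin 43, was lower at -1.67, -1.98, -1.59 and -1.29. Of 15 oligodendrocyte genes, 9 were tested and 7 were higher. Myelin genes are shared between oligodendrocytes and Schwann cells, and which cells gave this signal was not tested. Mog, Olig1, Olig2, Opalin and Ermn, which are known as oligodendrocyte genes, were not above background in DRG on all 4 arrays.

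**Figure D3:**
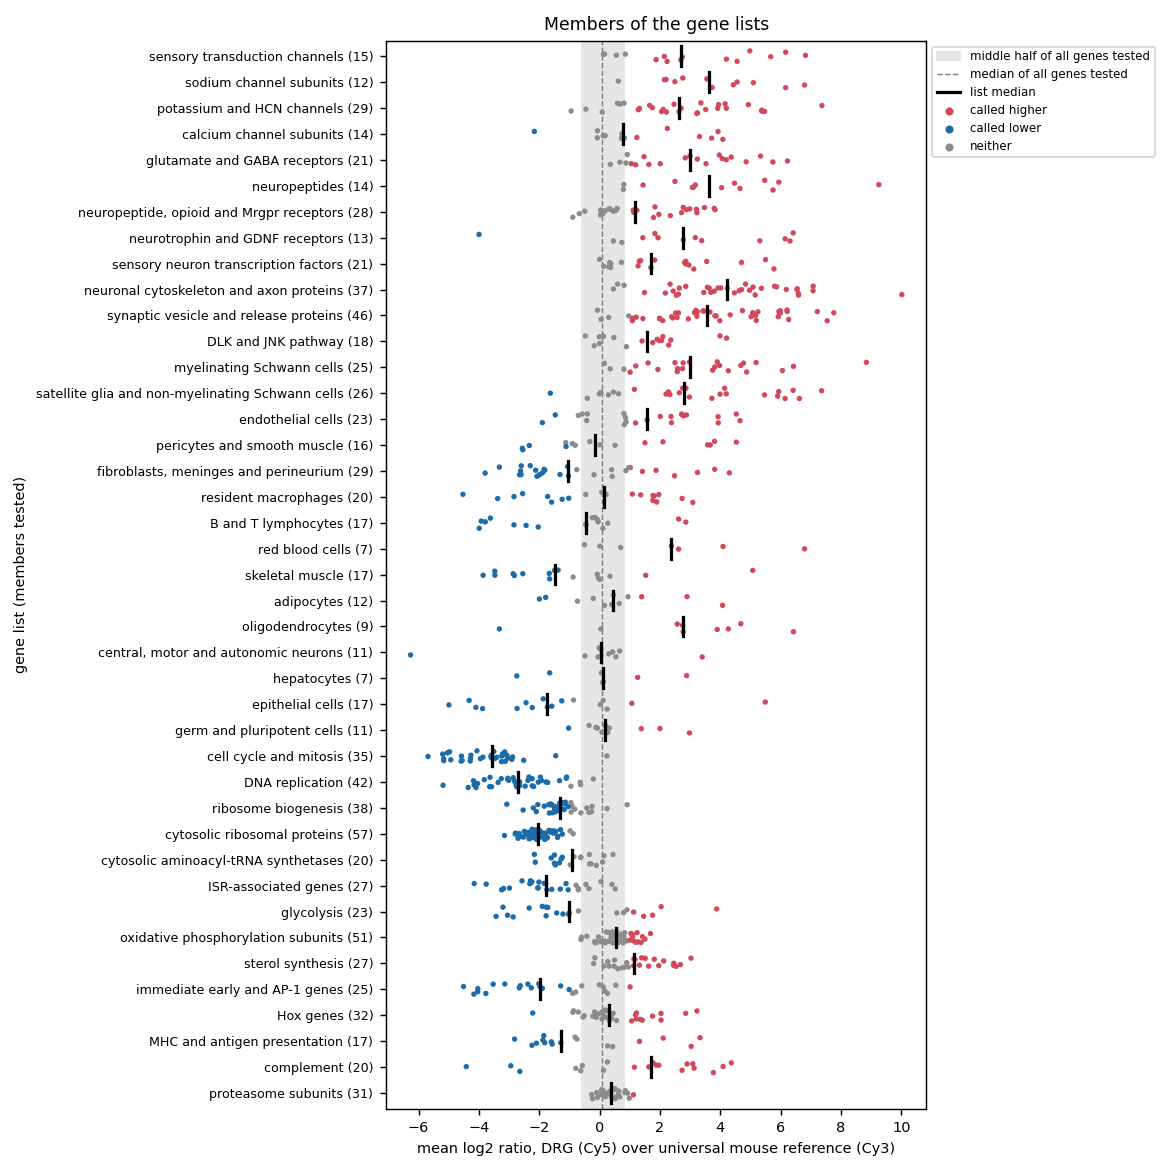
Mean log2 ratio of DRG (Cy5) over universal mouse reference (Cy3) for the tested members of 41 gene lists, 1 point per gene and coloured by call, with black bars at list medians, a dashed line at the median of all genes tested (0.09) and a grey band over the middle 50% of all genes (-0.58 to 0.80). The medians of glial lists and of most neuronal lists lie to the right of the band, with 4.23 for neuronal cytoskeleton and axon proteins. Those of calcium channel subunits (0.78) and of central, motor and autonomic neurons (0.05) lie inside it. Cell cycle (-3.58), DNA replication (-2.70) and ribosomal protein genes (-2.03) lie to its left.

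Genes of vessels were split. Of 23 endothelial genes, 13 were higher and 2 lower, with a median of 1.58. Emcn and Cldn5, of which the second seals vessel junctions, had means of 4.66 and 4.53. The 2 lower ones were Slc2a1, a glucose transporter that dividing cells also use, at -1.90, and Ly6c1 at -1.47, whose call was lost with median centring (-0.995) and with the average of its probes (-0.84). Pericyte and smooth muscle genes gave 6 higher and 4 lower of 16. The pericyte gene Rgs5 (4.53) and vitronectin (Vtn, 3.81) stood at one end, and the smooth muscle and mesenchymal genes Des (-2.54) and Tagln (-2.56) at the other.

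Fibroblast, meningeal and perineurial genes were lower in DRG more often than higher, 16 against 7 of 29, with a median of -1.06. The fibrillar collagens Col1a1 and Col3a1 had means of -2.62 and -2.65, the growth factor receptor Pdgfra of -3.32 and the factor Twist2 of -3.79. In the other direction stood Lum, a small proteoglycan, at 4.09, 3.79, 4.56 and 4.76, Ptgds, the prostaglandin D synthase of the meninges, at 2.81, 3.66, 4.33 and 4.45, and the microfibril protein Mfap5 at a mean of 3.24. Lum and Ptgds were higher on replicates 3 and 4 than on replicates 1 and 2.

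Blood and immune genes were split too. Of 20 resident macrophage genes tested, 9 were higher and 8 lower, with a median of 0.14. The complement genes C1qc (3.09) and C1qa (2.73) and the scavenger receptors Mrc1 (1.96) and Cd163 (1.81) were higher. Ptprc, the pan-leukocyte antigen CD45, was lower at -4.73, -4.95, -4.21 and -4.22, as were Trem2 (-3.38) and Cd68 (-2.84). Lymphocyte genes gave 2 higher and 7 lower of 17, with Thy1 (2.86), which neurons express as well, and Ighm (2.62) higher, and Ms4a1 (-3.99), Cd79b (-3.92) and Cd3g (-3.62) lower. Of 14 red blood cell genes 7 were tested and 4 were higher, with Hbb-bt at 6.79 and Hba-a1 at 4.09. Haemoglobin genes are near copies of each other, and their probes may share signal.

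Markers of other tissues followed. Skeletal muscle genes were higher for 2 of 17 and lower for 10, and the highest, Pvalb at 5.07, encodes parvalbumin, which proprioceptive neurons also express. Adipocyte genes were higher for 3 of 12 (25%, beside 21.1% of all genes) and lower for 2 (16.7%, beside 16.8%). Both shares were thus near those of all genes, and Cidea was the highest member (4.08). Epithelial genes were lower for 11 of 17, with Krt18 at -5.44, -4.96, -5.0 and -4.58 and Epcam at a mean of -4.32. Cdh1, E-cadherin, went the other way at 5.68, 5.29, 5.39 and 5.60. Of 18 hepatocyte genes 7 were tested, of which 2 were higher and 2 lower. Germ and pluripotent cell genes were tested for 11 of 20, with 3 higher and 1 lower.

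Genes of cell division were lower almost throughout. Of 35 tested genes of the cell cycle and mitosis list, 34 were lower (97.1%, beside 16.8% of all genes) and none was higher, with a median of -3.58. Mki67, Bub1 and Ccnb1 were at its lower end, with Top2a, which untangles chromosomes, at -5.04, -4.79, -4.98 and -5.08. Ube2c, which feeds mitotic proteins to degradation, stood at -4.19, -4.39, -4.36 and -4.18, and Cdk1, the mitotic kinase, at -3.15, -3.07, -3.13 and -3.22. Ccne1, cyclin E1, was the exception at 0.30, 0.28, 0.19 and 0.21. Aurkb, the kinase Aurora B, was above background in the reference on all arrays and in DRG on none, and its signal was at least 20.1-fold lower in DRG. All 42 DNA replication genes passed the filter, 38 were lower and none was higher, with a median of -2.70. The helicase subunits Mcm7, Mcm6 and Mcm5 had means of -4.10, -3.82 and -2.65.

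The promoters of this group are shown because many of its members carry 2 short elements near their start, the CCAAT box and the cell cycle genes homology region TTTGAA. In the 250 bases before the start, CCAAT on either strand (ATTGG on the other) was in 24 of 30 cell cycle genes with an entry (80%), in 22 of 35 DNA replication genes (62.9%), in 41% of genes called lower, in 38.9% of genes called higher, in 39.8% of genes tested and in 37.5% of all genes. TTTGAA, searched on both strands, was in 11 of the 30 cell cycle genes (36.7%), in 5 of the 35 DNA replication genes (14.3%), in 13.5% of genes tested, in 15.4% of genes called lower and in 18.3% of all genes. The letters TTTCCCGC or TTTGGCGC, which E2F factors bind, were in 6 of 35 DNA replication genes (17.1%), in no cell cycle gene, in 4.23% of genes called lower, in 1.65% of those called higher, in 2.45% of genes tested and in 1.51% of all genes. CCGGAAGT, an ETS site, was in 6 of the 35 replication genes as well (17.1%), against 5.58% of genes tested, 5.41% of genes called lower and 3.23% of all genes, and shares of ribosomal protein genes (16.3%), proteasome genes (16%) and tRNA synthetase genes (15.4%) were close to it. An NRF1 site was in 0.877% of all genes and in none of the genes of these 2 lists. The 150 bases before the start of Cdk1, Ube2c and Mki67 are given with CCAAT and TTTGAA on either strand in capitals, and those of Mcm6 with TTTGGCGC in capitals.
Cdk1, chr10:69352913-69353062 (- strand): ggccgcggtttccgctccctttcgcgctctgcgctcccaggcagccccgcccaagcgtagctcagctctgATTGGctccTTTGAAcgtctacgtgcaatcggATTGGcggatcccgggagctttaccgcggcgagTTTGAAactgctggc
Ube2c, chr2:164769779-164769928 (+ strand): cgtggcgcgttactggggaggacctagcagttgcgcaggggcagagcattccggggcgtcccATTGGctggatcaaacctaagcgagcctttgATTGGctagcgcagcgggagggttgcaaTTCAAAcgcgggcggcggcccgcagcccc
Mki67, chr7:135716380-135716529 (- strand): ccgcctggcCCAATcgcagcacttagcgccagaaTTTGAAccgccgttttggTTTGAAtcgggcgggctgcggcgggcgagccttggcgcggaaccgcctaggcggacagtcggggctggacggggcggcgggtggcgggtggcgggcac
Mcm6, chr1:128359706-128359855 (- strand): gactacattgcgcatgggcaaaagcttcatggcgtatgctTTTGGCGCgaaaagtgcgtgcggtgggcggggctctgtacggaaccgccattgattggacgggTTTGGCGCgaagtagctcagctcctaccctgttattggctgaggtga
Sterol synthesis genes held CCAAT more often still, 18 of 19 (94.7%), yet they were higher in DRG, so that the element was found in lists of either direction.

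Genes for making ribosomes and proteins were lower as well. Of the 57 cytosolic ribosomal protein genes, all passed the filter, 55 were lower and none was higher, with a median of -2.03 and a range from -3.15 (Rpsa) to -0.88 (Rpl11). Rpl38, the other one not called, had a mean of -0.98 and passed the fold limit without replicate 3 (-1.0) or without replicate 4 (-1.04). Ribosomal proteins have many processed pseudogenes, so that their probes may share signal. The mean of the list was -2.03, -2.16, -1.96 and -1.97 on replicates 1 to 4. Of 38 ribosome biogenesis genes 27 were lower and none higher, with a median of -1.32 and the nucleolar protein Npm1 lowest at -3.08. Of 20 cytosolic aminoacyl-tRNA synthetase genes 9 were lower and none higher, from Vars at -2.16 to Wars at 0.44. Proteasome subunits, in contrast, stayed close to the centre, with 1 of 31 called, Psmc5 at 1.12, and a median of 0.38. That call was lost with the average of its probes (0.983).

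The genes on which the study turns were also read in the uninjured state. The integrated stress response (ISR) is set off by kinases that phosphorylate the translation factor eIF2α, among them PERK (Eif2ak3), and raises the translation of the transcription factor ATF4 and the transcription of its targets. Of 27 tested ISR-associated genes, 19 were lower in DRG than in the reference and none was higher, with a median of -1.78. Atf4 stood at -1.72, -1.74, -1.74 and -1.79, and its mean of -1.75 ± 0.05 (SE; limma adjusted p = 1.12e-08) corresponds to a 3.36-fold lower signal. Chac1, a glutathione-degrading enzyme and ATF4 target, stood at -1.82, -1.61, -1.90 and -1.81. Eif4ebp1, which restrains cap-dependent translation, stood at -4.19, -4.29, -4.15 and -3.99, and was 17.8-fold lower. The arrays of these 3 genes did not overlap 0.

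Trib3, a pseudokinase that feeds back on ATF4, had a mean of -3.76. The stress-induced chromatin protein Nupr1 stood at -3.46, -3.50, -2.87 and -2.91, lower on replicates 1 and 2 than on 3 and 4. Ddit3 (CHOP) had a mean of -1.11 and, with median centring and no loess, of -0.82, under the fold limit. Ppp1r15a (GADD34), which dephosphorylates eIF2α, had a mean of -0.71 and was not called. Asns, asparagine synthetase, stood at 0.73, 0.12, 0.65 and 0.14. Of the 4 eIF2α kinases, Eif2ak3 stood at 0.55, 0.40, 0.56 and 0.56, not called, and Eif2ak4 (GCN2) at a mean of -1.04, which left the call without replicate 4 (-1.0), with median centring (-0.82) and with the average of its probes (-0.68). The other kinases, Eif2ak1 and Eif2ak2, were not called.

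The promoters of ISR-associated genes are shown because the C/EBP-ATF element, through which ATF4 acts, is known from promoters of this group. TGATGNAA, on either strand, was in 7 of 25 of these genes with an entry (28%), in 2.5% of genes called lower, in 2.82% of genes called higher, in 2.62% of genes tested and in 3.91% of all genes. The 150 bases before the start of Nupr1, Asns and Slc7a11 are given with the match in capitals. Slc7a11, a cystine transporter, was above background in the reference only and at least 1.96-fold lower in DRG.
Nupr1, chr7:126625471-126625620 (- strand): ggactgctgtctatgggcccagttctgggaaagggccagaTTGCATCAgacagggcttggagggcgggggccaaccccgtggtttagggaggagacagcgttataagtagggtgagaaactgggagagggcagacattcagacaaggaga
Asns, chr6:7693210-7693359 (- strand): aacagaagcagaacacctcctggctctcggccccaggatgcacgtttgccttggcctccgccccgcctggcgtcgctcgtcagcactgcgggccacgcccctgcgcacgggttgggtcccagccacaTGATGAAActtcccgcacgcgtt
Slc7a11, chr3:50443614-50443763 (- strand): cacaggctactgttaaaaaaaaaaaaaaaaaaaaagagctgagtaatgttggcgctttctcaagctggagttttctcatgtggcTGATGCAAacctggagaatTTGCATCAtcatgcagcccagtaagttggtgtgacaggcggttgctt
Of the 3, Nupr1 was called lower, Asns was not called, and Slc7a11 was outside the test, so that genes with these letters did not share 1 ratio.

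The DLK and JNK pathway carries the injury signal from the axon to the cell body, where it ends on the transcription factor c-Jun. Of its 18 genes, all tested, 10 were higher in uninjured DRG and none was lower, with a median of 1.58, or of 0.66 with the average of each gene's probes. Map3k12, the kinase DLK itself, stood at 1.71, 1.91, 1.66 and 1.75 (3.38-fold higher; limma adjusted p = 3.56e-08). Mapk10, the neuronal kinase JNK3, stood at 4.03, 3.88, 3.85 and 4.19, and the scaffold Mapk8ip2 at a mean of 4.21. Jun stood at 0.31, 0.28, 0.33 and -0.44, with replicate 4 apart from the other arrays, and its mean of 0.12 was not called.

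Most other immediate early genes were lower, 16 of 25 tested with 1 higher and a median of -1.98. Egr1 stood at -4.86, -4.85, -4.24 and -4.08 and Fos at -4.23, -4.45, -3.98 and -4.00, both lower on replicates 1 and 2 than on 3 and 4. Atf3, a regeneration-associated factor of the ATF family, stood at -0.89, -0.87, -1.12 and -1.15. Its mean of -1.01 sat on the fold limit and left the call without replicate 3 (-0.97), without replicate 4 (-0.96) and with median centring (-0.74).

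**Figure D4:**
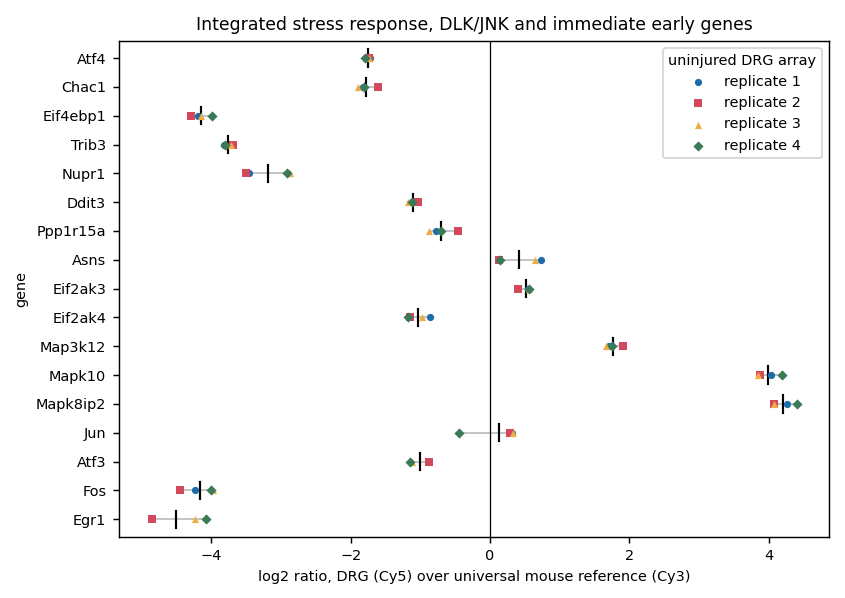
Log2 ratio of DRG (Cy5) over universal mouse reference (Cy3) on the horizontal axis for 17 genes of the integrated stress response, the DLK and JNK pathway and the immediate early group, with 1 marker per uninjured array and a black bar at the mean of 4. Mapk8ip2 (4.21), Mapk10 (3.99) and Map3k12 (1.76) lie to the right, Eif4ebp1 (-4.16), Fos (-4.17) and Egr1 (-4.51) far to the left, and Jun on replicate 4 (-0.44) lies apart from its other arrays.

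Metabolic lists differed from each other. Of 23 glycolysis genes, 5 were higher and 13 lower, with a median of -1.02. The higher ones included Ldhb, the lactate dehydrogenase subunit of oxidative tissues (3.88), and the neuronal isoforms Aldoc (2.04) and Eno2 (1.46). The lower ones included Slc16a3, a lactate exporter (-3.43), hexokinase 2 (Hk2, -3.20) and Eno1 (-2.33). Oxidative phosphorylation subunits were higher for 12 of 51 and lower for none, a share of 23.5% beside 21.1% of all genes, with a median of 0.55 and Ndufb5 highest at 1.69. Sterol synthesis genes, which supply cholesterol to myelin, were higher for 15 of 27 and lower for none, with a median of 1.14. Tm7sf2, a sterol reductase, stood at 3.06, 2.97, 3.03 and 3.05, and Hmgcs1, an early step of the pathway, ranged from 2.01 on replicate 2 to 2.80 on replicate 4.

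Hox genes, which record position along the body axis, were tested for 32 of 39. Of these 11 were higher and 1 was lower, with a median of 0.30. Hoxd1, which some pain neurons express, was at least 9.78-fold higher against a dim reference. Hoxb5 stood at 2.79, 2.72, 2.93 and 2.99, and Hoxa9 and Hoxa7 had means of 2.04 and 2.03. The lower one was Hoxa11, at -2.86, -2.28, -1.56 and -2.17.

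In the list of antigen presentation genes 4 of 17 tested were higher and 9 lower. The class II genes H2-Eb1 and H2-Ab1 had means of 3.33 and 3.03, both lowest on replicate 2 (2.83 and 2.70), while B2m, the shared light chain of class I, stood at -2.79, -3.10, -2.61 and -2.76 and the peptide transporter Tap1 at a mean of -2.24. The 4 higher ones were class II genes, and the 9 lower ones were class I heavy chains, B2m, peptide transporters and immunoproteasome subunits. Of 20 tested complement genes 12 were higher and 3 lower, with the regulators Serping1 (4.36) and Cd55 (4.09) at the upper end and C3, the central component, at -4.37, -4.78, -4.30 and -4.21. No cause was tested for any of these differences.

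The 4 arrays differed among themselves for a small set of genes. The SD over the arrays was above 1 for 37 genes and above 0.5 for 260 of 19357. Transcripts of the sex chromosomes were among them. Xist, the RNA of the inactive X chromosome, stood at 0.74, -3.28, 0.92 and 0.53. The Y-linked genes Ddx3y and Eif2s3y, which were above background in DRG on 1 array and so lay outside the test, stood at -3.48, 1.08, -3.21 and -3.16 and at -3.02, 1.43, -3.0 and -3.19. In each of the 3 genes replicate 2 stood apart from the other arrays, and the labels give no sex.

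A second set was higher on replicates 3 and 4. Cfd (adipsin), made by fat cells, stood at 2.13, 0.25, 4.62 and 4.59. Fabp4, also of fat, stood at 0.31, -1.68, 2.18 and 1.79, and without replicate 2 its mean of 0.65 became 1.43 and was called. Genes of the connective sheath did the same, with Mfap4, a microfibril protein, at 0.05, 1.25, 2.94 and 2.55, Sfrp4, a secreted Wnt inhibitor, at 2.16, 3.21, 5.16 and 4.27, Ecrg4 at 1.67, 3.02, 4.54 and 4.24, and fibulin 1 (Fbln1) at -3.06, -2.40, -0.84 and -0.96. Cnn1, a smooth muscle protein, stood at -2.23, -2.57, 0.27 and 0.04. In each of these genes the values of replicates 3 and 4 did not overlap those of replicates 1 and 2. Cfd, Fabp4 and Cnn1 were chosen for their high SD, and Mfap4, Sfrp4 and Ecrg4 after values were seen. Fbln1, a member of the fibroblast list, was not among the genes chosen for SD. The split therefore describes the genes chosen, and the share of all genes that split this way was not counted.

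Some list means moved with them, but these lists are not independent of the genes above. Cfd and Fabp4 are in the adipocyte list, Cnn1 in the pericyte and smooth muscle list and Fbln1 in the fibroblast list. List means without these genes were not taken. The mean over 29 fibroblast, meningeal and perineurial genes was -0.88, -0.97, -0.04 and -0.21, that over 16 pericyte and smooth muscle genes 0.32, 0.16, 0.77 and 0.75, and that over 12 adipocyte genes 0.33, -0.11, 0.93 and 0.93. Some immune lists showed the same split, with a mean over 20 resident macrophage genes of -0.23, -0.52, 0.15 and 0.28. Over 20 complement genes it was 0.88, 0.63, 1.33 and 1.33, and over 17 antigen presentation genes -0.54, -0.65, -0.41 and -0.33. The 17 lymphocyte genes did not split this way, at -1.19, -1.05, -1.14 and -0.89. The mean over 37 neuronal cytoskeleton genes, in contrast, stayed between 4.21 and 4.34. Adipoq, the defining adipocyte gene, was not above background on all 4 arrays. Replicates 2, 3 and 4 lie on 1 slide and replicate 1 on another. Whether slide or another batch had a part in the split of replicates 1 and 2 from 3 and 4 was not tested. The part of sheath, fat or immune cells in the ratios of other genes was not tested.

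Single arrays also carried single genes. Xirp1, a muscle protein, stood at 0.19, 0.11, -0.05 and 4.33, BC006965 at 0.09, -0.17, 0.08 and 4.46, Olfr259 at 0.34, 0.18, 0.36 and 3.57 and Tm4sf4 at -0.83, -0.88, -0.97 and 2.43, each high on replicate 4 alone. Clcn1, a chloride channel, was high on replicates 1 and 3 (1.82 and 1.53) and low on 2 and 4 (-0.88 and -1.52), and Ramac high on replicates 2 and 3 (1.26 and 1.21) and at -1.48 and -1.47 on the others. None of these genes was called, and their means are not measures of DRG against reference.

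**Figure D5:**
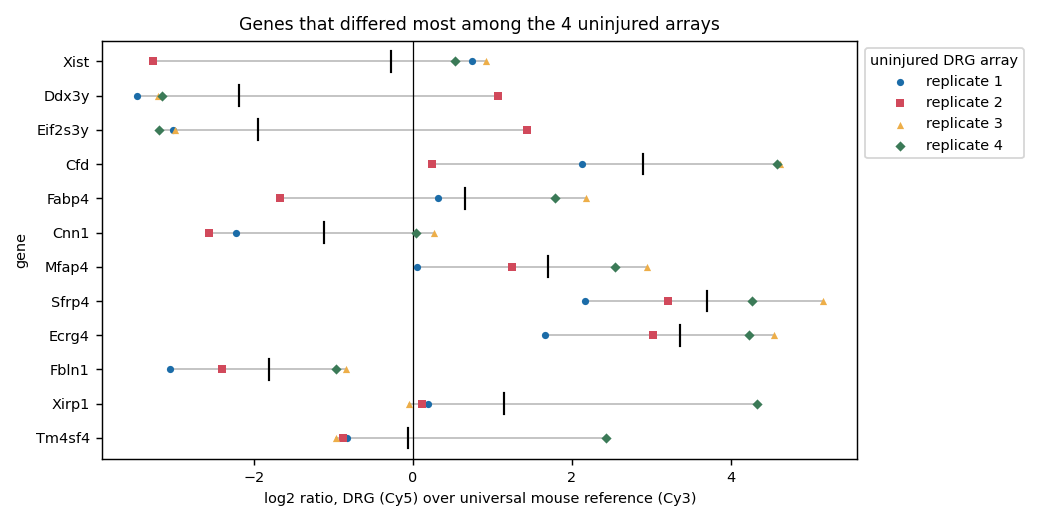
Log2 ratio of DRG (Cy5) over universal mouse reference (Cy3) on the horizontal axis for 12 genes that differed most, or in a shared way, among the 4 uninjured arrays, with 1 marker per array and a black bar at the mean. Replicate 2 stands apart for Xist (-3.28), Ddx3y (1.08) and Eif2s3y (1.43), replicates 3 and 4 are higher for the genes from Cfd to Fbln1, and replicate 4 alone is high for Xirp1 (4.33) and Tm4sf4 (2.43).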

How the data were processed

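RNA of 4 uninjured L3/L4 DRG samples was hybridized with a universal mouse reference to Agilent arrays. The values deposited by the authors are on the log2 scale (DRG, Cy5, relative to reference, Cy3). The submitters' processing notes name limma, without a version. The deposited values had a slope between 0.985 and 0.994 against ratios recomputed here from the deposited scanner intensity of each spot by normexp (offset 50) and loess, and between 0.734 and 0.757 against an offset of 0. The deposited log10 ratios of Agilent Feature Extraction served as an alternative. Probe coordinates are those of the files, build mm7.

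Means were tested with lmFit and eBayes (R 4.3.3, limma 3.58.1). Probes were named by accession (23082), symbol (6584) or older name (3061), and 8447 kept the name in the file. Genes named are the 15 highest and 15 lowest called genes with a current symbol, the 10 with the highest SD over the arrays, the 4 highest and 4 lowest members of each list, single members that its description turns on, and genes the study discusses. The arrays, genes and lists were chosen with earlier results of these data known. Mfap4, Sfrp4, Ecrg4, Ddx3y and Eif2s3y, and the motifs, were chosen after values were seen. Repeated spots had a median SD between 0.0590 and 0.0692 per array. Some genes that this rule names are not reported here. The procedure was tested on simulated data. Plots used matplotlib 3.10.9 in Python 3.11.15.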

Additional observations from a re-analysis of the deposited data

Results flagged for a closer look

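In a group of 4 samples, the gap of the highest or the lowest sample to its neighbour was divided by the range of the group and held against Dixon's 95% critical value. Of the 193 genes examined, 12 passed it (6.22%), where chance gives about 1 in 20. The 193 include the 10 genes chosen for the highest SD over the arrays, 5 of which passed, and the share is therefore not comparable with chance. Of the other 183 genes 7 passed (3.83%). Replicate 4 stood apart for BC006965 (0.943), Xirp1 (0.944), Tm4sf4 (0.959), Olfr259 (0.945) and Jun (0.942), whose values are given above, and Cd79b (0.877), at -4.10, -4.04, -4.03 and -3.52. Xist, with replicate 2 low, gave 0.907, and Eif2ak3, with replicate 2 low, 0.895. Replicate 1 stood apart for Synpr (0.898), Mycl (0.911), Hoxa9 (0.871) and Cd55 (0.858), and their called direction was the same on all 4 arrays. Of 41 list means, that of the immediate early and AP-1 genes passed (0.896), at -1.79, -1.91, -1.79 and -1.78, with replicate 2 lowest.

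Ddx3y and Eif2s3y, outside the test because their DRG signal was above background on 1 array, stood at 1.08 and 1.43 on replicate 2, above their level on the other 3 arrays. No cause of these values was tested.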

How the results depend on the processing

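No paired analysis was possible because all 4 samples form 1 group, with numbers given in accession order. Of 20 alternatives, 16 were run on single genes and lists and the other 4, on thresholds, on probe counts. In the 16, 3021 of 3077 values of the 193 named genes kept their direction and their side of the threshold. Of the rest, 17 lost the call, 21 gained it and 18 changed sign. Leaving out saturated probes could change nothing, as no probe was saturated. Settings that only change the filter keep the mean of each probe, so that the values kept include some that could hardly move. Of 688 list medians under alternatives, 215 moved by more than the spread between arrays, and 5 lists changed sign: pericytes and smooth muscle (0.17 with median centring), resident macrophages (-0.19 with probes above background in both channels), central, motor and autonomic neurons (-0.03 with arrays centred on the probes tested), hepatocytes (-0.01 with probes above background in either channel) and the sex-linked list, which rests on Xist. On Agilent's own ratio the medians rose for sensory transduction channels (4.31), potassium channels (4.03), glutamate and GABA receptors (4.64) and endothelial genes (2.65), and fell further for fibroblast (-1.92) and epithelial (-3.005) genes. Median centring gave -0.44 for tRNA synthetases, -0.58 for glycolysis, 1.07 for oxidative phosphorylation and -0.79 for antigen presentation. With an offset of 0, calcium channels reached 1.24, endothelial genes 2.71 and oligodendrocyte genes 4.27. With no filter on dim probes, red blood cell genes reached 0.70, oligodendrocyte genes 0.13 and complement genes 0.70. A fold limit of 4 gave 2597 probes higher and 1464 lower, one of 1.5 gave 7051 lower, and Agilent's own log ratio gave 6882 lower. Leaving out 1 array at a time gave 5691 to 5733 probes higher, 4468 to 4571 lower and 23375 to 24190 different from 0. The genes that changed sign were not called and varied among arrays. BC006965 reached -0.000567 without replicate 4. Xist reached 0.0037 with median centring, 0.27 with array weights and ranged from -0.67 without replicate 3 to 0.73 without replicate 2. Clcn1 reached -0.0768 with Agilent's ratio, and ranged from -0.29 to 0.82 as single arrays were left out, with -0.19 without replicate 3. Tm4sf4 reached 0.14 with median centring, 0.0277 with slide as a random block, 0.19, 0.21 and 0.24 without replicates 1, 2 and 3, and -0.89 without replicate 4. Ramac reached 0.22 with median centring, 0.0354 with the random block, 0.33 without replicate 1 or 4, -0.58 without replicate 2 and 0.24 as the average of its probes. Jun reached -0.00802 with Agilent's ratio. The cause was not tested. Normexp with an offset of 0 was added after seeing the data. Dim probes limit what these arrays resolve.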
